A study of Mus musculus with 19 samples.

Results

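Peaks of the chromatin protein SPEN called straight after heat shock were compared with peaks called after a recovery period, in mixed mouse testicular cells precipitated with an antibody against an internal part of SPEN. The comparison used 8 of the 19 libraries of the series, 4 on each side. The immediate side held the libraries of cells heated at 38 °C for 15 min, 38 °C for 30 min, 43 °C for 15 min and 43 °C for 30 min. The recovery side held the libraries of cells heated at 38 °C or 43 °C for 30 min and then returned to 32 °C for 2 h or 4 h. From the authors' annotated peak lists, peaks on chromosomes 1 to 19 were kept if they shared no base with any peak of 3 background lists, namely IgG from testicular cells, input DNA from testicular cells and input DNA from spermatocytes. All 19 libraries together held 80795 peaks on all chromosomes and contigs. In the 8 libraries the filter left 3653 peaks, called antibody-specific here only because they passed it. Merging peaks that shared at least 1 bp gave 2639 loci. A locus belonged to the immediate side if at least 2 immediate libraries and no recovery library held a peak there, and to the recovery side in the opposite case; 91 loci met the first condition and 68 the second.

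The series asked whether SPEN binds chromatin in testicular cells, by chromatin immunoprecipitation and sequencing of FVB/N males aged 10 to 16 weeks. Tubule cells were dispersed with collagenase, most interstitial and blood cells were washed off, and the suspension was held at 32 °C, close to scrotal temperature, until pre-heated medium brought it to 38 °C or 43 °C. All 8 libraries carried the same antibody and strain, and no genetic change was stated for any of them. Each library combined 5 to 6 precipitations of chromatin sheared to 100 to 500 bp, so each condition had 1 library, and the 4 libraries of a side are 4 different conditions, not replicates. Heating time and recovery were partly tied together, because 2 immediate libraries had 15 min of heat and every recovery library had 30 min. The cells were a mixture of germ and somatic cells, and peak lists hold no expression values against which cell type markers could be checked.

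SPEN, also known as SHARP in humans and MINT in mice, is a large nuclear protein with RNA recognition motifs at one end and a SPOC domain at the other. The SPOC domain recruits corepressor complexes with histone deacetylase activity. SPEN represses targets of Notch signalling by binding the DNA-bound factor RBPJ, and it silences genes on the inactive X chromosome after Xist RNA has recruited it. In embryonic stem cells of the mouse SPEN has also been described at RNA from endogenous retroviruses, which is why repeats under the peaks were counted here. Heat shock activates heat shock factors, which bind inverted GAA repeats in the promoters of chaperone genes.

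Few peaks touched a promoter window of RefSeq, counted apart from the promoter label of the deposited annotation. Of 31396 autosomal promoter windows in RefSeq (GRCm38.p6, the assembly named mm10; 250 bp before to 50 bp after the gene start), windows of 34 genes shared a base with a peak, at 32 loci. Of these loci, 21 had peaks in immediate libraries and no recovery library, 7 in recovery libraries and no immediate library, and 4 on both sides. The library of 38 °C for 30 min was the sole holder of 15. Among all 2639 loci, 1364 were held by 1 immediate library and 91 by at least 2, with no recovery peak. The reverse counts were 702 and 68, and 414 loci had peaks on both sides. Loci of immediate libraries alone were thus the more numerous over all loci too, and the promoter split was not tested. No promoter locus was on the recovery side and 1 was on the immediate side. The windows below are shown because they are that locus (the predicted gene LOC115490388), a promoter held once on each side (Pfdn2, a subunit of the chaperone prefoldin) and the promoter of a Notch target (Nrarp, a feedback inhibitor of Notch). They run 5′ to 3′ on the gene's strand, which was the plus strand for these 3 genes, and capitals mark a match to 1 of 3 motifs searched on both strands: the RBPJ core TGGGAA and the heat shock pairs GAANNTTC and TTCNNGAA.
LOC115490388: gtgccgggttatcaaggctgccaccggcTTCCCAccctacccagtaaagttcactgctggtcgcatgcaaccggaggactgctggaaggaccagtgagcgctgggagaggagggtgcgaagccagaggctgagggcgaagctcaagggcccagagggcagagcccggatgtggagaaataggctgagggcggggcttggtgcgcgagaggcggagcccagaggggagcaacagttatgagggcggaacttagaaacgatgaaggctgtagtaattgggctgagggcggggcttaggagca
Pfdn2: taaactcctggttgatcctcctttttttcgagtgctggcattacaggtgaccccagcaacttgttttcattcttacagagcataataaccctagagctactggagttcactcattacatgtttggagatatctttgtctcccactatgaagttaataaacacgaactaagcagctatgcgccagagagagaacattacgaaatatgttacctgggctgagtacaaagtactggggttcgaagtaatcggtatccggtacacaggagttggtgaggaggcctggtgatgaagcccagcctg
Nrarp: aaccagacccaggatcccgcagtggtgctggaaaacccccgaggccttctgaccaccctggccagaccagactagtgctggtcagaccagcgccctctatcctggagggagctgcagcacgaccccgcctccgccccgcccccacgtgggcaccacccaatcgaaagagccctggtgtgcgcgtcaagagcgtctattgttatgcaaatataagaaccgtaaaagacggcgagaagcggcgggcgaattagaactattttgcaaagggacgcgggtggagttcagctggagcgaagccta
The window of LOC115490388 lay at chr6:3182866-3183165, that of Pfdn2 at chr1:171344704-171345003 and that of Nrarp at chr2:25180508-25180807. The first held 1 match to the RBPJ core, which 25.3% of all autosomal windows of this length also held, and no match to either heat shock pair (7.87% and 8.58% of windows). No match to any of the 3 motifs lay in the other 2 windows.

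The peak over LOC115490388 scored 163.6 at 38 °C for 30 min, where it covered the whole window, and 64.9 at 38 °C for 15 min. The score is the authors' peak caller value, whose lowest value lay between 50 and 50.02 in the 8 lists. No peak was called there in the other 6 of the 8 libraries, and a background peak began 213 bp away. Outside the 8, the locus had a peak with the N-terminal antibody at 38 °C for 15 min. It also had one in untreated spermatocytes and in spermatocytes at 43 °C for 30 min. The Pfdn2 window held a peak of score 59.68 at 43 °C for 30 min and one of score 54.65 at 38 °C with 2 h of recovery. At Nrarp a peak of score 51.81, close to the lowest score in the lists, was called at 38 °C for 30 min and in no other of the 8 libraries.

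The number of antibody-specific peaks did not separate the sides. The immediate libraries had 365 peaks at 38 °C for 15 min, 1072 at 38 °C for 30 min, 365 at 43 °C for 15 min and 374 at 43 °C for 30 min. The recovery libraries had 318 peaks at 38 °C with 2 h, 353 at 38 °C with 4 h, 388 at 43 °C with 2 h and 418 at 43 °C with 4 h. One library, 38 °C for 30 min, stood far above the other 7, which spanned 318 to 418. The mean was 544 for the immediate and 369.2 for the recovery libraries, a difference of 174.8 peaks (two-sided exact permutation test over the 8 libraries, p = 0.543; the smallest p this design allows is 0.0286). Without 38 °C for 30 min the difference was -1.25 peaks (exact permutation p = 0.943). At 38 °C both immediate libraries had more peaks than both recovery libraries, whereas at 43 °C both had fewer. Read depth is unknown, so a longer list cannot be told apart from a deeper library.

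**Figure D1:**
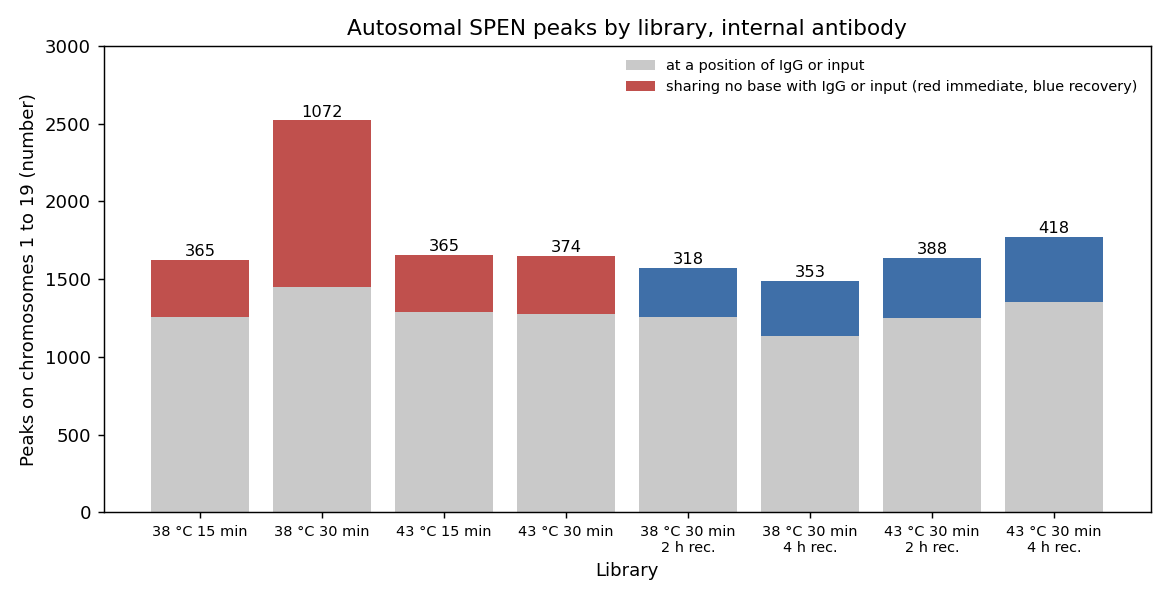
Number of autosomal peaks in each library (vertical axis), split into peaks at a position of IgG or input (grey) and antibody-specific peaks (red immediate, blue recovery, number above the bar). The library of 38 °C for 30 min has 1072 antibody-specific peaks and the other 7 have 318 to 418.

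Most autosomal peaks of these libraries lay at background positions. The share at background was 57.5% at 38 °C for 30 min (exact 95% interval 55.5 to 59.4) and between 76.3% and 79.8% in the other 7 libraries. The mean was 72.6% for the immediate and 77.2% for the recovery libraries, and the sides overlapped (exact permutation p = 0.657, adjusted p = 0.956 by Benjamini-Hochberg over 15 shares). Measured the same way against the 2 inputs alone, 24.7% of autosomal IgG peaks lay off the inputs (interval 22.6 to 27.0), against 24.6% to 27.9% in the 7 libraries and 46.3% at 38 °C for 30 min. In those 7 libraries the share of peaks off the inputs was thus close to that of the IgG precipitation. Between 8.22% and 17.6% of each SPEN library's peaks off the inputs shared a base with such a peak of IgG. At 631 autosomal positions called in all 8 libraries, before background removal, the median score was 244.5 at 38 °C for 30 min and between 189.4 and 221.6 in the others. Antibody-specific peaks, a name for the filter alone, were low in every library, with median scores of 57.3 to 59.3 and median widths of 162 to 173 bp. Off the inputs alone, the median score was 58.0 to 60.2 in the 8 libraries and 58.2 in the IgG list.

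Most loci were seen once. Of the 2639 loci, 2066 were held by 1 library and 573 by at least 2. The 91 loci of the immediate side made up 15.9% of those 573, the 68 of the recovery side 11.9%, and the remaining 414 had a peak on both sides. These shares follow from the rule and from the lengths of the lists and were not tested. No locus was held by all 8 libraries, and 19 were held by at least 6. Of 57 loci held by at least 3 immediate libraries, 9 had no recovery peak, and of 48 loci held by at least 3 recovery libraries, 8 had no immediate peak. All 11 loci held by the 4 immediate libraries also had a recovery peak, and all 6 held by the 4 recovery libraries had an immediate peak. Loci held by exactly 2 libraries numbered 82 within the immediate side, 60 within the recovery side and 188 with 1 library of each side, or 13.7, 10 and 11.8 loci per pair of libraries.

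**Figure D2:**
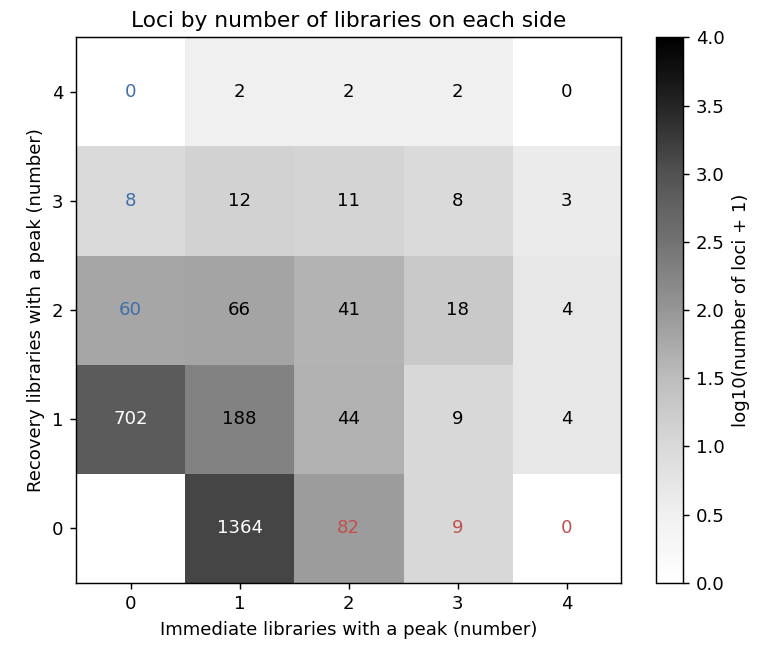
Number of loci by how many immediate libraries (horizontal axis, 0 to 4) and how many recovery libraries (vertical axis, 0 to 4) held a peak, with darker squares for more loci on a log10 scale. Red numbers are the 91 loci of the immediate side and blue numbers the 68 of the recovery side, and the squares for all 4 libraries of one side and none of the other hold 0.

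The rule left many near misses. Just outside it stood 1364 loci with 1 immediate library and no other, 702 with 1 recovery library and no other, 57 with at least 2 immediate and 1 recovery library, and 80 with at least 2 recovery and 1 immediate library. The highest score at a locus had a median of 71.8 on the immediate side and 66.9 on the recovery side, against 73.1 for loci held by both. For the 57 and 80 loci with 1 opposing peak the medians were 82.0 and 77.4, in ranges of 53.4 to 230.2 and 54.9 to 155.4. Loci of 1 library had lower medians, 56.9 for immediate and 55.6 for recovery libraries. Among the 91 immediate loci, 60 had a peak at 38 °C for 30 min, 51 at 43 °C for 15 min, and 40 each at 38 °C for 15 min and 43 °C for 30 min. Among the 68 recovery loci, 45 had a peak at 43 °C with 4 h, 36 at 38 °C with 4 h, 32 at 38 °C with 2 h and 31 at 43 °C with 2 h. Libraries of both temperatures held 67.0% of the immediate and 67.6% of the recovery loci. Most library pairs within a side cross the temperatures, and a locus of 3 libraries always does. These shares thus follow largely from the layout and were not tested. Without the library of 38 °C for 30 min 40 immediate loci were left, and without any other immediate library in turn 54, 48 or 58; leaving out each recovery library gave 29 to 43 recovery loci, the fewest without 43 °C with 4 h.

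The 9 loci held by 3 immediate libraries and no recovery library lay in introns or between genes, and all but 1 were over 5 kb from a start site. The highest score was at chr7:10284978-10285175, -9702 bp from the start of Vmn1r66 (negative distances are upstream), a vomeronasal pheromone receptor gene, with 122.1 at 38 °C for 30 min, 54.88 at 43 °C for 15 min and 60.64 at 43 °C for 30 min. The next was a (CACAG)n repeat at chr11:26183610-26183855, -18503 bp from Mir6372, with 114.8, 91.61 and 56.82 in the same 3 libraries. At chr3:51766600-51766904 a (TG)n repeat in an intron scored 72.63 at 38 °C for 15 min, 70.56 at 38 °C for 30 min and 87.18 at 43 °C for 15 min. It was assigned to Mgst2, a microsomal glutathione transferase gene, from 105565 bp away. These 3 loci lay more than 500 kb from any background peak (the nearest at 534190 bp) and each had a peak in the untreated internal list.

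The locus nearest to a gene start was at chr4:63602237-63602390, in an IMPB_01 satellite -1532 bp from the start of the predicted gene Gm11213. It scored 57.96 at 38 °C for 15 min, 68.05 at 38 °C for 30 min and 64.66 at 43 °C for 30 min, and 6 of the 8 other SPEN libraries held a peak there. An internal part of the retrovirus MMERVK10C, at chr4:36208368-36208572 and nearest to Lingo2, scored 60.56, 58.69 and 69.24 at 38 °C for 30 min, 43 °C for 15 min and 43 °C for 30 min. It was absent from the untreated list. The remaining 4 were assigned to Gm5591, Adam29 (a testis metallopeptidase gene, 367383 bp away), Smarca5-ps and 4930467E23Rik, with highest scores between 56.17 and 90.14. At Smarca5-ps and Gm5591 a background peak began 134 and 818 bp away. All 9 loci had a peak at 38 °C for 30 min. Any locus held by 3 libraries of a side has peaks at both temperatures, so their 43 °C peaks were fixed by the rule.

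Among the 82 loci held by exactly 2 immediate libraries, the 10 with the highest scores reached 103.7 to 163.6. After the LOC115490388 locus came an RMER17B retroviral repeat at chr15:61238672-61238785, with 126.2 at 38 °C for 15 min and 118.4 at 38 °C for 30 min, found in none of the other SPEN libraries. Simple repeats held 3 of the 10, namely (CTGTG)n assigned to Gm21283, (CTCA)n in an intron of Pdzrn4 and (A)n near Cd164l2. A peak in exon 4 of NM_172924, assigned to Tspan3, scored 117.5 at 38 °C for 30 min and 79.47 at 43 °C for 15 min. The library of 38 °C for 30 min held 9 of the 10, all but the (A)n repeat near Cd164l2. Among them were a locus -46348 bp from the start of Gja5, a connexin gene, and a B1_Mus2 repeat in an intron of Rnf180.

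The 8 loci held by 3 recovery libraries and no immediate library were also distal. The highest score was at chr7:38379605-38379780, -108350 bp from Pop4, which encodes a subunit of ribonuclease P, with 110.5 at 38 °C with 2 h, 57.87 at 38 °C with 4 h and 51.06 at 43 °C with 2 h. An L1MEg repeat in an intron of Prkch, a protein kinase C gene, at chr12:73618531-73618723, scored 92.03 at 38 °C with 2 h, 96.4 at 43 °C with 2 h and 66.83 at 43 °C with 4 h. Both were spread over the 2 temperatures, as any locus held by 3 libraries of a side must be. The Prkch locus also had a peak in spermatocytes at 43 °C with 2 h of recovery, and the Pop4 locus in untreated spermatocytes.

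Retroviral and B1 repeats made up 3 of the others. An MTA_Mm repeat at chr2:39417354-39417550, nearest to the phosphatase gene Ppp6c, scored 54.16 at 38 °C with 4 h, 59.25 at 43 °C with 2 h and 73.41 at 43 °C with 4 h. A B1_Mus2 repeat at chr11:86704429-86704618, assigned to Ptrh2, scored 72.12, 59.25 and 52.75 in the same 3 libraries, and an RMER6A repeat assigned to Rex2 reached 59.18. The Ppp6c locus had a peak in all 3 heated spermatocyte libraries and in none of the untreated ones. A further 2 were assigned to Gm13154 (97.2) and 2410141K09Rik (74.04), and a background peak began 392 and 2 bp away, respectively.

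The 10 highest of the 60 loci held by exactly 2 recovery libraries scored 81.66 to 131.5. First was an L1_Mus3 repeat at chr9:19869351-19869475, 14899 bp from the olfactory receptor gene Olfr862, with 56.55 at 38 °C with 2 h and 131.5 at 38 °C with 4 h. Second was a B1_Mm repeat at chr12:22283245-22283345, with 66.57 at 38 °C with 4 h and 115.2 at 43 °C with 4 h. The Olfr862 locus also had a peak in untreated spermatocytes, and the B1_Mm locus had one in the untreated internal list. Another pair was in young L1 elements. An L1Md_T assigned to 4632415L05Rik scored 77.07 at 38 °C and 91.85 at 43 °C after 4 h. An L1Md_F2 assigned to Gm7977 scored 88.11 at 43 °C with 2 h and 67.18 at 43 °C with 4 h. A (CCCTAA)n stretch, the unit of mammalian telomeres, scored 51.38 at 43 °C with 2 h and 82.3 at 43 °C with 4 h. It was assigned to Cdh26 from 356508 bp away. Another in an intron of Slc14a2, named after its values were seen, scored 65.7 and 55.18 in the same libraries. The (CCCTAA)n locus assigned to Cdh26 also had a peak in untreated spermatocytes. Spermatocytes at 43 °C for 30 min, without recovery and with 2 h, had one there too. Peaks in this unit numbered 0, 1, 1 and 0 in the immediate libraries, in the order 38 °C 15 min, 38 °C 30 min, 43 °C 15 min and 43 °C 30 min, and 0, 1, 2 and 4 in the recovery libraries at 38 °C with 2 h and 4 h and 43 °C with 2 h and 4 h, so these numbers overlapped.

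A locus held by most libraries must have peaks on both sides, since each side has 4 libraries. No locus exceeded 7 of the 8 libraries, and the 5 with most libraries and highest scores each had 7. The promoter of Tug1, a long non-coding RNA needed for male fertility in mice, held a peak 41 bp from the deposited start site (chr11:3647386-3647641). That promoter label is from the deposited annotation, and the locus was not among the 32 loci in RefSeq windows. It scored 79.93, 72.83, 65.23 and 66.86 in the immediate libraries at 38 °C 15 min, 38 °C 30 min, 43 °C 15 min and 43 °C 30 min. In the recovery libraries it scored 63.47 at 38 °C with 2 h, 89.64 at 38 °C with 4 h and 77.86 at 43 °C with 2 h, and no peak was called at 43 °C with 4 h, so the scores of the sides overlapped. A (T)n stretch in an intron of Afm, the afamin gene, scored 58.71 to 117.7 in the 4 immediate libraries and 66.57 to 88.69 in 3 recovery libraries. A pair of internal parts of the retrovirus RLTR45 scored 51.89 to 105.6 and 58.24 to 145.9. The first was assigned to Cntn5 at -1046589 bp from its start, the second to Olfr1459 at 5859 bp. The locus with the highest score of the 5, in an intron, reached 172.8 and lay 63 bp from a background peak. It was assigned to Kat6b, a histone acetyltransferase gene, at -186976 bp from its start.

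The loci were looked up in the 8 SPEN lists that the rule did not use. The untreated internal list, with 25732 antibody-specific autosomal peaks, held 44 of the 91 immediate loci (48.4%, exact interval 37.7 to 59.1) and 7 of the 68 recovery loci (10.3%, interval 4.24 to 20.1). Of the 573 loci held by at least 2 libraries it held 33.0%. The immediate value rested on 1 library: of the 60 immediate loci with a peak at 38 °C for 30 min the untreated list held 65%, and of the other 31 it held 16.1% (interval 5.45 to 33.7). When loci were rebuilt without that library, the untreated list held 25% of the immediate and 20.0% of the recovery loci.

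The same pattern appeared in spermatocytes at 43 °C with 4 h of recovery, whose list had 7748 such peaks. It held 33 of the 91 immediate loci (36.3%), 30 of them among the 60 with a peak at 38 °C for 30 min. Of the other 31 immediate loci it held 3 (9.68%), and of the 68 recovery loci 4 (5.88%). Its share of the 573 loci held by at least 2 libraries was 24.96%. The other 6 lists were far shorter, with 297 to 533 peaks. The 3 N-terminal antibody lists held 14.3% to 20.9% of the immediate loci, 2.94% to 7.35% of the recovery loci and 13.8% to 17.8% of the 573. They held 16.7% to 25% of the 60 immediate loci with a peak at 38 °C for 30 min and 9.68% to 16.1% of the other 31. Of the immediate loci, the recovery loci and the 573, the 3 remaining spermatocyte lists held 7.69% to 13.2%, 8.82% to 13.2% and 11.2% to 15.5%, respectively. Any of the 8 other SPEN lists held 65.9% of the immediate and 33.8% of the recovery loci, against 61.6% of the 573. Of the 31 immediate loci without a peak at 38 °C for 30 min, any of these lists held 45.2%. Loci of a side come from the same libraries, so the intervals cover counting error and do not compare the conditions.

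Counted over peaks, the share found in the untreated list was 25.2% at 38 °C for 15 min, 52.6% at 38 °C for 30 min, 26.8% at 43 °C for 15 min and 17.9% at 43 °C for 30 min. In the recovery libraries it was 19.8% and 18.4% at 38 °C with 2 h and 4 h, and 19.3% and 21.1% at 43 °C. The 43 °C 30 min library was thus the lowest of all 8, and the other 3 immediate libraries lay above the 4 recovery libraries. The mean was 30.6% against 19.7%, a difference of 11.0 percentage points (exact permutation p = 0.143, adjusted p = 0.956 over 15 shares). Without 38 °C for 30 min the difference was 3.67 points (exact permutation p = 0.257), and without 43 °C for 30 min it was 15.2 points (p = 0.0286, the smallest 7 libraries allow).

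Some loci of opposite sides lay near each other; the windows and genes named here were chosen after their values were seen. Of the 68 recovery loci, 17 were within 100 kb of an immediate locus (25%, exact interval 15.3 to 37.0), and of the 91 immediate loci, 17 were within 100 kb of a recovery locus (18.7%, interval 11.3 to 28.2). Of the 414 loci with both sides, 15.7% lay as near to an immediate and 11.4% to a recovery locus. In 16 windows of 1 Mb both kinds occurred, and these held 32 immediate and 23 recovery loci. The window with most was on chromosome 12 from 115 to 116 Mb, with 6 immediate and 5 recovery loci, 98 loci in all and 173 background peaks. Others lay on chromosome 8 from 69 to 70 Mb, where 2 loci of each side were assigned to Zfp868, a zinc finger gene, and on chromosome 7 from 64 to 65 Mb, where an immediate locus at -35750 bp and a recovery locus at -14512 bp from the start of Apba2 lay in 1 window. At the pseudogene Smarca5-ps 1 immediate locus and 2 recovery loci, and at the histocompatibility gene H2-Q2 1 immediate locus and 2 recovery loci, lay within 100 kb of each other. Background peaks were dense in several of these windows, and 18.7% of immediate, 19.1% of recovery and 20.8% of shared loci lay within 1 kb of one, shares that differed little between the kinds.

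Libraries of a side shared no more loci with each other than with the other side. Sharing was measured by the Jaccard index, the loci held by both libraries of a pair as a percentage of the loci held by either. It averaged 7.05% over the 6 immediate pairs, 8.57% over the 6 recovery pairs and 8.19% over the 16 pairs of 1 immediate and 1 recovery library. Within a side the mean over 12 pairs was 7.81%, a difference from that between sides of -0.384 percentage points (two-sided exact permutation test over the 8 libraries, p = 0.257). The highest value of the 28 pairs, 12.0%, was between 43 °C for 30 min and 43 °C with 4 h of recovery, a pair that crosses the sides. The 7 pairs with 38 °C for 30 min were the lowest, at 3.66% to 5.69%, and the next lowest of the other pairs was 7.02%. Against the inputs alone, the IgG list had a Jaccard index of 6.45% to 9.97% with the 8 libraries, and the libraries averaged 6.25% to 12.1% with each other. The sign of the difference between within and across sides was not stable: it was 0.316 points without 38 °C for 15 min and 0.106 points without 43 °C for 30 min.

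**Figure D3:**
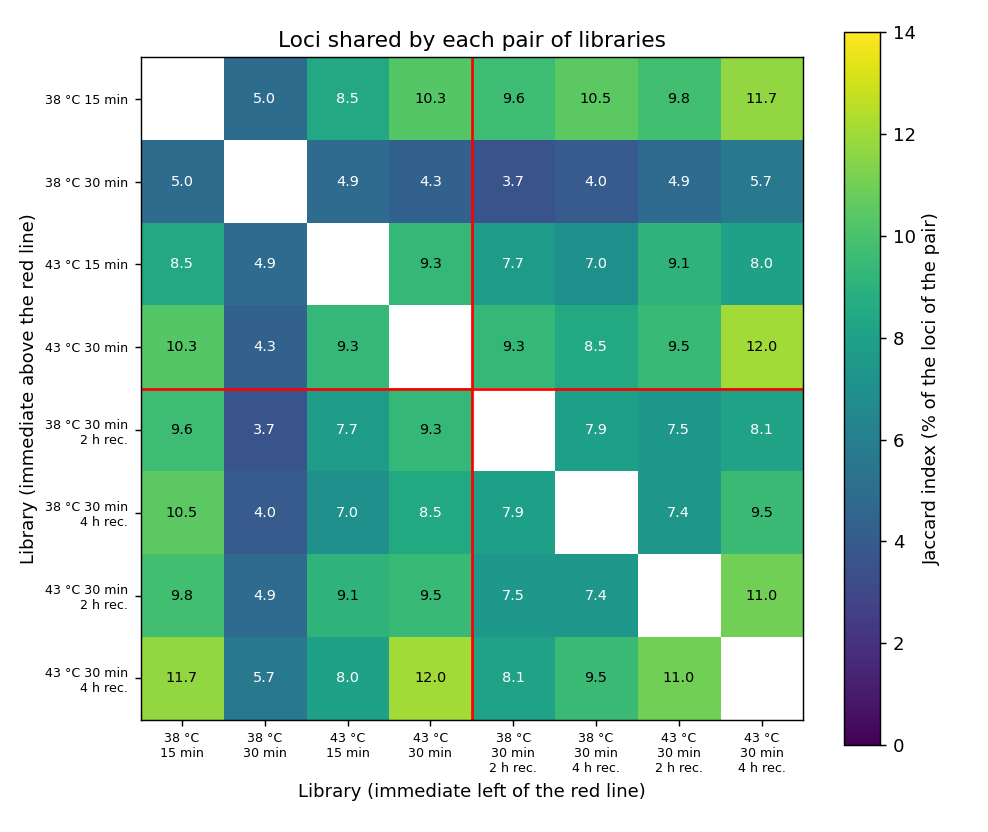
Jaccard index of loci, in % of the loci of the pair, for every pair of libraries, with immediate libraries before the red lines and recovery libraries after them. The row of 38 °C for 30 min is the lowest, at 3.66% to 5.69%, and the squares across the lines hold values up to 12.0%.

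Peaks called at 30 min were found again after recovery to different extents at the 2 temperatures. At 43 °C, 66 of the 374 peaks at 30 min were found at 2 h of recovery (17.6%, exact interval 13.9 to 21.9) and 84 at 4 h (22.5%, interval 18.3 to 27.0), and 35 were found at both. At 38 °C, 50 of the 1072 peaks were found at 2 h (4.66%, interval 3.48 to 6.10) and 53 at 4 h (4.94%, interval 3.73 to 6.42), and 15 at both. The low values at 38 °C go with the longer list: counted from the recovery libraries, 15.4% of peaks at 2 h and 15.0% at 4 h lay at 30 min peaks, against 17.0% and 20.1% at 43 °C. With 1 library per condition the difference between temperatures was not tested.

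Time order was not visible in these shares. Of the 365 peaks at 38 °C for 15 min, 18.4% were found at 30 min, 16.4% after 2 h of recovery and 18.4% after 4 h, with intervals that overlapped. Of the 365 peaks at 43 °C for 15 min, 17.3%, 17.3% and 15.9% were found at these times. Found in all 3 later libraries were 8 peaks at 38 °C and 13 at 43 °C. Peaks at 2 h that were also at 4 h and in neither immediate library numbered 23 of 318 at 38 °C (7.23%) and 33 of 388 at 43 °C (8.51%). Peaks at 30 min that were also at 15 min and in neither recovery library numbered 38 of 1072 (3.54%) and 25 of 374 (6.68%).

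**Figure D4:**
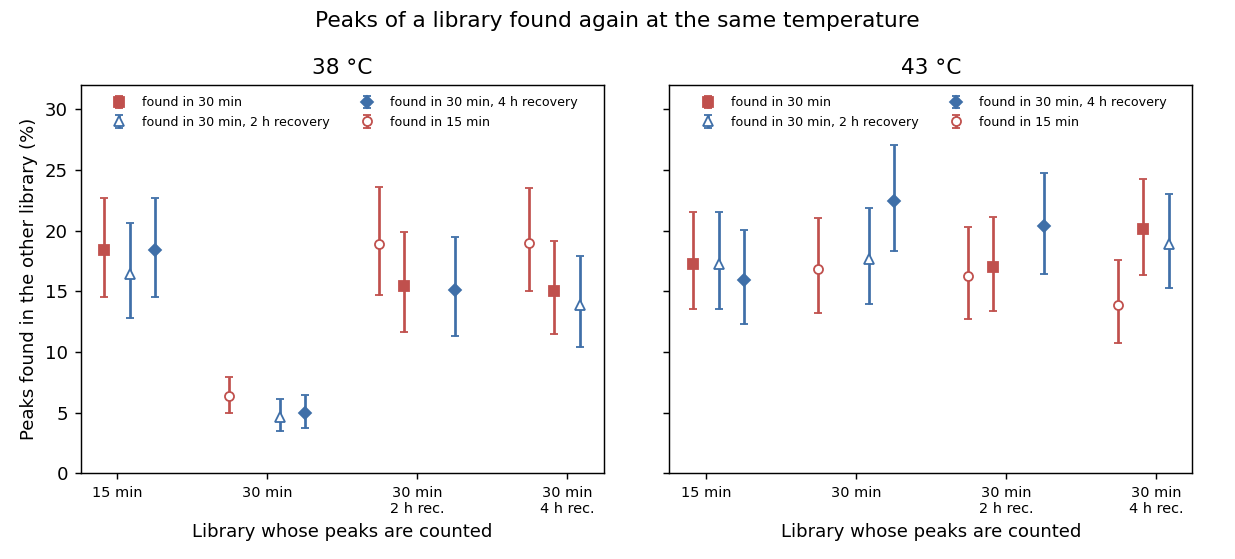
Percentage of each library's antibody-specific peaks (horizontal axis) that share a base with a peak of another library at the same temperature, with exact 95% intervals as bars, red for immediate and blue for recovery libraries searched. The 30 min library at 38 °C has values of 4.66% to 6.34%, and the other libraries lie between 13.9% and 22.5%.

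The annotation of the peaks overlapped between sides in every class fixed for the comparison. Between 64.8% and 73.0% of peaks were intergenic and between 23.0% and 29.1% intronic. Promoters held 8, 22, 5 and 3 peaks in the immediate libraries (38 °C 15 min, 38 °C 30 min, 43 °C 15 min, 43 °C 30 min) and 5, 3, 7 and 3 in the recovery libraries (38 °C 2 h and 4 h, 43 °C 2 h and 4 h). CpG islands held 23 peaks at 38 °C for 30 min and at most 1 in any other library. LINE elements, the L1 retrotransposons and their relatives, held a mean of 26.6% of peaks in immediate and 28.0% in recovery libraries (difference -1.38 points, exact permutation p = 0.629). The young L1Md subfamilies held 17.4% on both sides (difference -0.03 points, exact permutation p = 0.971), and long terminal repeat (LTR) elements of retroviruses 16.8% and 16.1% (difference 0.70 points, exact permutation p = 0.543). The LTR difference ranged from 0.061 points without 43 °C with 2 h of recovery to 10.6 points at scores of at least 100 (exact permutation p = 0.0571), and was 1.83 points over all chromosomes and contigs (p = 0.0571). Simple and low complexity repeats held 7.29% and 9.46% (difference -2.17 points, exact permutation p = 0.143). The direction of the LINE difference rested on 38 °C for 15 min, without which it was 0.545 points, and that of L1Md turned to 1.84, 1.72 and 0.174 points without 38 °C for 15 min, 38 °C with 4 h and 43 °C with 2 h of recovery. Adjusted by Benjamini-Hochberg, these exact permutation p-values were 0.956 or higher for each of the 15 shares.

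The loci of the sides were alike in kind. LINE elements held 21 of the 91 immediate loci (23.1%) and 18 of the 68 recovery loci (26.5%), against 23.9% of the 573 loci held by at least 2 libraries. LTR elements held 15 (16.5%) and 7 (10.3%), against 13.96%, with intervals of 9.53 to 25.7 and 4.24 to 20.1. No locus of either side was in a promoter, a CpG island or an IAP element by the annotation of its highest peak, where 0.873%, 0.349% and 1.22% of the 573 were; 0 of 91 allows a share up to 3.97% and 0 of 68 up to 5.28% (upper exact 95% bounds, for counting error).

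Single repeat names gave the clearest separation, in a scan chosen after the repeats of the loci had been seen. Of 21 repeat names with at least 20 peaks over the 8 libraries, 3 had shares that did not overlap between the sides (14.3% of those compared), and in each the recovery libraries were higher. Stretches of (A)n, counted on both strands, held 3.01% of peaks at 38 °C for 15 min, 0.28% at 38 °C for 30 min, 1.10% at 43 °C for 15 min and 2.41% at 43 °C for 30 min. They held 4.09% at 38 °C with 2 h, 4.53% at 38 °C with 4 h, 3.61% at 43 °C with 2 h and 5.98% at 43 °C with 4 h. Every recovery library thus lay above every immediate one, also within each temperature, with means of 4.55% and 1.70% (difference -2.85 points, exact permutation p = 0.0286, adjusted p = 0.20 over 21 names, which does not pass).

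L1Md_F2, a subfamily of young mouse L1, held 2.15% to 2.74% of peaks in the immediate libraries and 2.83%, 5.67%, 4.64% and 4.78% in the recovery libraries (38 °C 2 h and 4 h, 43 °C 2 h and 4 h). L1_Mur2, an older L1, held 0.47% to 1.10% and 1.42% to 2.52%. Both had exact permutation p = 0.0286 and adjusted p = 0.20, so neither passed over the 21 names. Behind these shares stand few peaks: 95 in (A)n, 120 in L1Md_F2 and 47 in L1_Mur2 over the 8 libraries. The 95 peaks in (A)n fell at 65 loci, of which 38 had recovery peaks and no immediate peak, 10 the reverse and 17 both. Of the 25732 peaks in the untreated list, 4 lay in (A)n (0.016%), and of the 377 IgG peaks off the inputs 3 did (0.80%, interval 0.16 to 2.31). For L1Md_F2 the untreated list had 1.97% and IgG 2.65%. With peaks of score 60 or more, the exact permutation p was 0.0857 for (A)n, 0.286 for L1Md_F2 and 0.20 for L1_Mur2. For L1Md_F2 it was also above 0.05 with equal numbers of peaks per library (0.0857), testicular background libraries only (0.0857) and all chromosomes and contigs (0.114). With background positions kept, the differences were -1.03 points for (A)n, -0.449 for L1Md_F2 and -0.198 for L1_Mur2. When libraries were exchanged within each temperature, all 3 names had an exact permutation p of 0.0556, the smallest that design allows. With 1 library left out, the exact permutation p rose to 0.0571 for (A)n without 38 °C 2 h, 38 °C 4 h or 43 °C 4 h of recovery, and for both L1 names without any one of the immediate libraries.

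**Figure D5:**
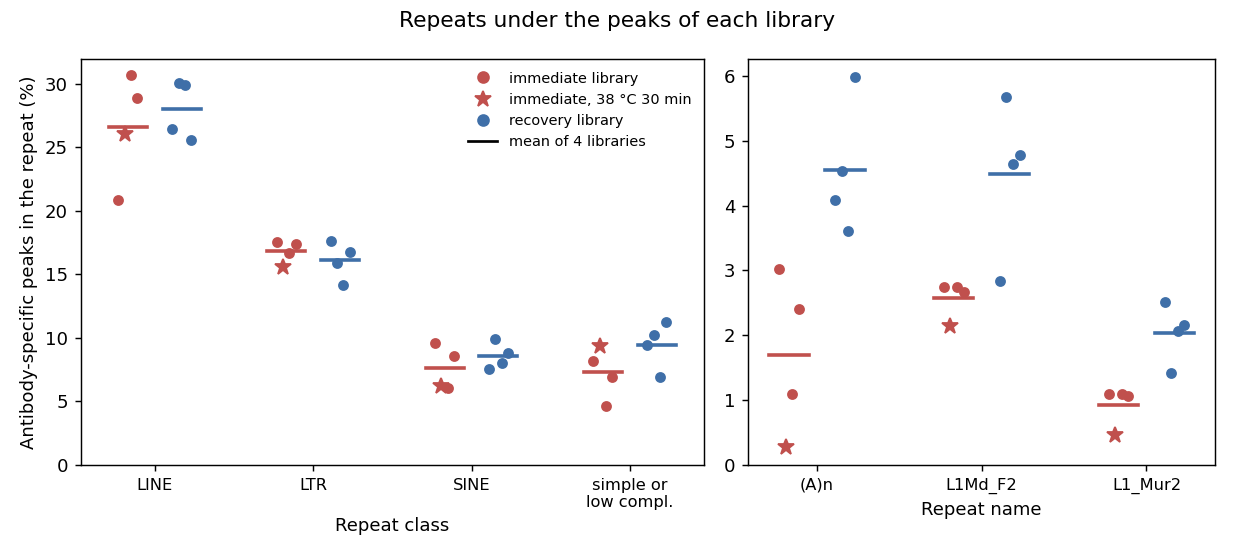
Percentage of antibody-specific peaks in a repeat (vertical axes, separate scales) for 4 repeat classes (left) and for the 3 repeat names whose sides did not overlap (right); each point is 1 library, a star is 38 °C for 30 min and a line is the mean of the 4 libraries of a side. The classes overlap, and for (A)n the immediate libraries lie at 0.28% to 3.01% and the recovery libraries at 3.61% to 5.98%.

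Few genes had a peak near their start. Within 5 kb of a start site in the deposited annotation, 145 autosomal genes had a peak in some immediate library and 82 in some recovery library, or 0.308% and 0.174% of the 47042 autosomal genes in the RefSeq table, and 38 had one on both sides. By library there were 104 genes at 38 °C for 30 min and 23 to 33 in the other 7. Of the immediate loci 5 lay within 5 kb of a start. The locus nearest to one was in a B1_Mus2 repeat in intron 1 of Nol9, an RNA kinase gene of ribosomal RNA processing, 984 bp from the start, with scores of 50.17 at 38 °C for 15 min and 50.83 at 43 °C for 15 min. The others belonged to Gm11213, Rnase2a (a secreted ribonuclease, -4495 bp, 69.05 at 38 °C for 30 min and 50.2 at 43 °C for 15 min), Ros1 (a receptor tyrosine kinase, -4579 bp, in an L1Md_A) and 4930572O03Rik (-3766 bp). Another peak within 5 kb of 4930572O03Rik was called in a recovery library.

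Of the recovery loci 5 lay as near. In the intron of Ang4, an antimicrobial ribonuclease of the angiogenin family, a locus 750 bp from the start (chr14:51772685-51772995) scored 80.76 at 43 °C with 2 h and 50.29 at 43 °C with 4 h. In Akap8, which encodes a nuclear anchor of protein kinase A, an (A)n stretch 2223 bp from the start scored 53.08 at 38 °C with 4 h and 51.45 at 43 °C with 4 h. In Grm7, a glutamate receptor gene, a (T)n stretch 3492 bp from the start scored 62.71 and 50.31 in the same 2 libraries. The other 2 belonged to Gm4312 (1268 bp) and 1700110I07Rik (3822 bp). Another peak within 5 kb of Gm4312 was called in an immediate library. Of these 5 loci, Ang4 had the highest score.

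Of the members of 9 gene lists, 2 had a peak within 5 kb in an immediate library and none in a recovery library. Over all autosomal genes the shares were 0.308% and 0.174%, so lists of this size would hold few or no members at the same rate, and a 0 tells nothing about a list. The 2 members were Nrarp, of 22 autosomal Notch pathway genes, and Cdh5, a marker of blood vessels, of 20 genes of Leydig, peritubular and blood cells, with a score of 53.97 at 43 °C for 15 min. None of 30 heat shock proteins, co-chaperones and heat shock factors had a peak within 5 kb on either side, nor was a peak at any distance assigned to one. The list does not cover every chaperone gene: outside it, and named after the values were seen, St13, an Hsp70 co-chaperone, and Hsbp1l1, a heat shock factor binding protein-like gene, had a peak within 5 kb in an immediate library. A recovery locus in an L1Md_F element was assigned to Dnajb9, an endoplasmic reticulum co-chaperone, from 710556 bp away. For the list of 16 spermatogonial genes, no peak lay within 5 kb on either side and none at any distance was assigned to a member. No peak lay within 5 kb of the 19 autosomal genes of apoptosis and p53, 22 of SPEN and its partners, 33 of meiotic prophase, 28 of spermatids or 15 of Sertoli cells. The apoptosis and Notch lists are not complete either. Outside them, and named after the values were seen, Dffb, Psen2 and Hes3 had a peak within 5 kb in an immediate library. Aven had one in a recovery library.

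Farther peaks were assigned to a few list members. Downstream of Cdkn1a, the cell cycle inhibitor p21 and a p53 target, peaks 10 to 15 kb from the start were called in the 4 immediate libraries, with highest scores of 96.01, 56.81, 72.37 and 55.18 at 38 °C 15 min, 38 °C 30 min, 43 °C 15 min and 43 °C 30 min. They were also called in 3 recovery libraries, with 64.47 at 38 °C with 4 h, 54.02 at 43 °C with 2 h and 100.2 at 43 °C with 4 h, so the scores overlapped. An intron of Tdrd1, a piRNA pathway gene of germ cells, scored 52.77 at 43 °C for 15 min and up to 73.24 at 43 °C with 4 h. A peak at -8210 bp from the start of Gdnf, the Sertoli cell factor for spermatogonial stem cells, scored 122.8 at 38 °C for 30 min. None was assigned to Gdnf in any other of the 8 libraries. At 38 °C for 30 min a (CTGTG)n repeat in an intron of the spermatid gene Spata16 scored 65.22.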

How the data were processed

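DNA bound by SPEN in mixed mouse testicular cells was sequenced, with 1 library per condition. Per the submitters' processing notes, Bowtie2, SAMtools and HOMER were used with mm10; the sources used here give no version, no read depth and no role for any of these tools. The authors deposited a peak list per library, with a peak caller score per peak, and an annotation of each peak by feature, repeat and nearest start site. Peaks of chromosomes 1 to 19 that shared no base with a background peak were merged by 1 bp. Sides were compared by two-sided exact permutation tests over 8 libraries (70 assignments) with Benjamini-Hochberg adjustment, in Python 3.11.15 with scipy 1.17.1. Intervals are exact Clopper-Pearson intervals (95%) and cover counting error only. The scripts were tested on simulated data. The members and gene lists were chosen with earlier results of these data known. Named loci were all those held by 3 or more libraries of a side, the 10 highest-scoring of 2 libraries, those within 5 kb of a start site and the 5 held by most libraries. Of these, 1 locus is not reported here. The repeat-name scan, the log2 scale, the 1 kb distance to background and the exclusion of 1 Mb windows were chosen after seeing the data. Promoter sequences came from RefSeq.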

Additional observations from a re-analysis of the deposited data

Results flagged for a closer look

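In groups of 4 libraries, a library was singled out where its gap to the nearest other was, as a share of the group's range, above Dixon's critical value at 95%. Of 38 groups, 6 had such a library, where chance gives about 1 in 20. The library of 38 °C for 30 min stood apart from the other immediate libraries in 5 measures: 1072 antibody-specific peaks, 57.5% of peaks at background positions, 29.1% of peaks in introns, 64.8% between genes and 2.15% in CpG islands. Among the recovery libraries, 38 °C with 2 h stood apart with 79.8% of peaks at background positions. The 6 cases concern 5 measures, which are not independent of each other.

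The difference in antibody-specific peaks between sides went opposite ways at the 2 temperatures. The immediate minus the recovery mean was 383 peaks at 38 °C and -33.5 peaks at 43 °C, with every immediate library above every recovery library at 38 °C and below it at 43 °C. The difference between temperatures was not tested.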

How the results depend on the processing

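The loci of a side changed in number with most settings. Immediate loci numbered 186 and recovery loci 110 with background positions kept, 50 and 37 at scores of at least 60, 7 and 1 at scores of at least 100, 158 and 198 over all chromosomes and contigs, 9 and 8 when 3 libraries were required, 20 and 111 with the 30 min libraries as the immediate side, and 59 and 45 outside 1 Mb windows with both (chosen after seeing the data). With equal numbers of peaks per library there were 59 immediate and 67 recovery loci, and outside the untreated list 47 and 61, so both settings turned which side had more. Leaving out 1 library gave 40 to 108 immediate and 29 to 91 recovery loci. The difference in peaks ranged from -1.25 to 234.4 with 1 library left out; with equal numbers of peaks it is fixed at 0 and was not computed. Sharing within minus between sides turned positive at scores of at least 60 (0.127 points), over all chromosomes (0.0252) and with the 30 min libraries (0.740), and ranged from -0.769 to 0.316 with 1 library left out. The LINE difference turned positive with background kept (0.0406 points) and ranged from -2.74 to 0.545 with 1 library left out. The L1Md difference turned positive with background kept (0.0263), testicular background libraries only (0.288), all chromosomes (2.62) and the 30 min libraries (1.33), and ranged from -1.12 to 1.84 with 1 library left out. The causes were not tested. The labels give no replicate numbers to block on. Exchanging libraries within each temperature gave exact permutation p-values of 0.722 for the difference in peaks and 0.278 for sharing, and raised p to 0.0556 for the 3 repeat names. Over 19 alternatives, that one included, p was no longer under 0.05 in 7 for (A)n, 11 for L1Md_F2 and 10 for L1_Mur2. Unknown read depth limits all comparisons of list length.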
